A study of Mus musculus with 45 samples.

Results

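The hippocampus of Csf1r-Cre mice without an amyloid transgene was compared between 12 and 4 months of age, with 7 samples at 12 months and 6 at 4 months, which are 13 of the 45 libraries of the series. Samples were placed by the genotype and age in their titles. Both groups were on a C57BL/6 background, carried floxed Apoe alleles, Apoe(fl/fl), and carried Csf1r-cre, so that the labelled difference between them was age. The Csf1r promoter drives Cre recombinase in microglia and in other cells of the myeloid lineage, and the series design states that microglial Apoe was deleted in this way. By that design mice of both ages carried the deletion, and the comparison holds no value for the deletion itself. Apoe(fl/fl) mice without Csf1r-cre were a reference, with 8 samples at 4 months and 3 at 12 months. Apoe(fl/fl) mice with both Csf1r-cre and 5xFAD were another, with 4 samples at 4 months and 5 at 12 months. Values are also given for Apoe(fl/fl) mice with 5xFAD and no Csf1r-cre, with 5 samples at 4 months and 7 at 12 months. 5xFAD is an amyloid model whose human transgenes are expressed in neurons from the Thy1 promoter. Samples are numbered in the labels with no statement that they were separate animals, and all p-values are relative to the spread among samples, which may be partly technical. They give neither sex nor a collection or sequencing run for a sample, and 2 kinds of sequencer are named, so age and any run that went with it cannot be told apart.

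Microglia are the resident macrophages of the brain, which survey the tissue, take up debris and prune synapses. In the old brain and around amyloid plaques they are known for higher levels of lysosomal, complement and antigen presentation genes, and astrocytes for higher Gfap and C4b. The dentate gyrus of the hippocampus goes on making granule neurons in adult mice, a process known to decline early in adult life. Apoe encodes the main lipid carrier of the brain and is made chiefly by astrocytes, and by microglia.

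Expression was measured by RNA-seq and analysed as TPM, a level scaled for gene length and for the total of the library, on the scale log2(TPM + 0.5). The steps between low values put a single read at 0.0577 to 0.0837 TPM for a gene 1000 bases long across the 13 libraries, so that values below about 1 TPM rest on few reads. A single non-coding gene, Gm23935, took 4.36% to 24.1% of the TPM of a library at 4 months and 4.37% to 16.8% at 12 months. At 12 months the highest share was in replicate 2 and the next was 10.1%. Summed short and non-polyadenylated RNAs had a median of 136270 TPM at 4 months and 82995 TPM at 12 months. TPM share a fixed total, and the part of this difference in the levels of other genes was not tested. For some lists, values rescaled without mitochondrial and short RNAs are given below. Xist exceeded the Y-linked Ddx3y in 4 of the 7 libraries at 12 months and in 3 of the 6 at 4 months. Replicate 2 at 12 months stood apart from the rest. Its median correlation with the other 44 libraries was 0.886, the lowest of the series, its hemoglobin transcripts came to 2987 TPM, the highest of the series, and long genes were low in it. In the longest of 5 equal bins of genes by length its median difference from the 4-month mean was -2.20 on the log2 scale, against -0.06 in the shortest. List values that it moved in size or direction, and the gene values most affected, are given without this library as well. The next library down, 12-month control replicate 2 at 0.939, was in a reference group. At 4 months Csf1r-Cre replicate 4 was high in the longest bin, at 0.71, and list values without it were not computed.

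**Figure D1:**
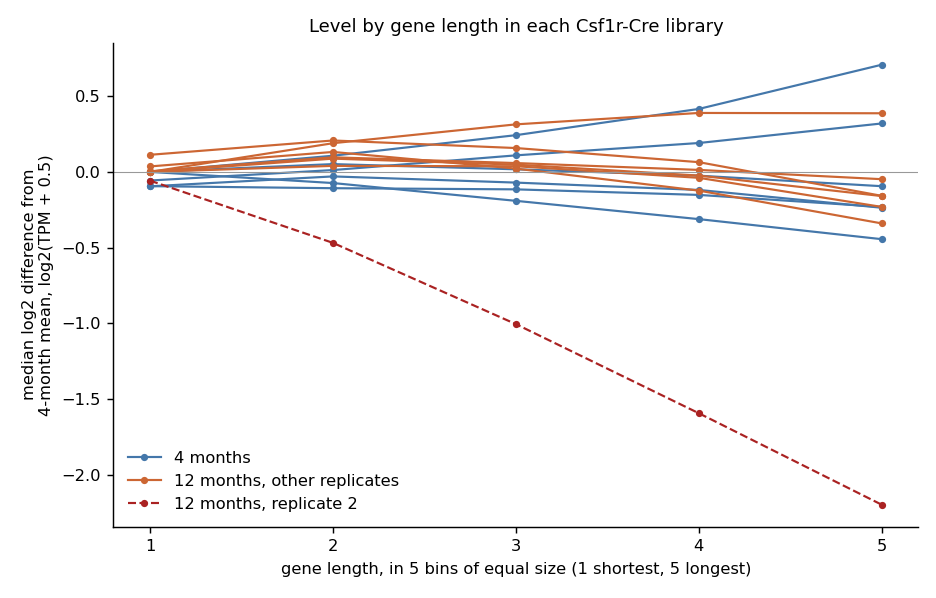
Median difference of each Csf1r-Cre library from the mean of the 4-month samples, on the log2(TPM + 0.5) scale, in 5 bins of genes by length, with 1 line per library. Replicate 2 at 12 months drops from -0.06 in the shortest bin to -2.20 in the longest, while 4-month replicate 4 reaches 0.71 in the longest.

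Markers of the hippocampus were measured in every sample, with summed CA pyramidal cell markers at 292, 479 and 875 TPM (lowest, median, highest) at 12 months and at 401, 679 and 961 TPM at 4 months. Summed dentate granule cell markers lay at 209, 356 and 622 TPM and at 261, 343 and 509 TPM. The tissue also carried markers of neighbouring structures in amounts that differed between samples. Summed markers of the striatum lay at 259, 578 and 4343 TPM at 12 months and at 195, 1079 and 4771 TPM at 4 months. Replicates 1, 4 and 7 at 12 months and 1 and 2 at 4 months were the high ones. Summed excitatory neuron markers were lowest at 12 months in replicates 7, 4 and 1, with 1012, 1682 and 2459 TPM, against 2334 to 4857 TPM at 4 months. Summed markers of choroid plexus and ependyma, the secretory and ciliated linings of the ventricles, lay at 72.4, 600.5 and 4903 TPM at 12 months and at 124, 548 and 2157 TPM at 4 months. In bulk tissue, fewer cells of a type and less RNA per cell cannot be told apart, and the part of these structures in the results below was not tested except where a value is given.

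Apoe itself (ENSMUSG00000002985, chromosome 7, 19696109 to 19699188 in mm10) was at similar levels at both ages. It lay at 1292, 3456 and 4141 TPM at 12 months and at 2392, 3149 and 5434 TPM at 4 months. The groups overlapped, and the lowest value of all was that of 12-month replicate 2. Means were 3174 ± 931 TPM (SD, n = 7) and 3328 ± 1093 TPM (SD, n = 6), and the difference in mean log2(TPM + 0.5) was -0.09 with an exact two-sided permutation p of 0.772. With 12-month replicate 2 left out the difference was 0.11, with an exact permutation p of 0.589, and without 4-month replicate 4 it was 0.06. Controls without Csf1r-cre were at 3028 ± 380 TPM (SD, n = 3) at 12 months and 3327 ± 730 TPM (SD, n = 8) at 4 months, close to the Csf1r-Cre means. The total level holds the transcripts of astrocytes as well, and the extent of the microglial deletion was not tested here.

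No gene passed the test between 12 and 4 months with Csf1r-Cre. Of 18659 genes tested with limma, 0 were called at a Benjamini-Hochberg adjusted p below 0.05, a share of 0%, and the smallest adjusted p was 0.577. At an unadjusted p below 0.05 there were 1520 genes, 8.15% of those tested, of which 705 had a higher level at 12 months (3.78%) and 815 a lower one (4.37%). No gene was called under any of 24 alternatives either. The smallest adjusted p in limma ranged from 0.0649, with median-of-ratios scaling, to 0.926, without 4-month replicate 4. The half-width of the 95% interval of a gene's log2 fold change had a median of 0.521, and for 13430 genes (72.0%) the whole interval lay within 1 log2 unit of 0. All values that follow for this age comparison are therefore levels and estimates, and none is a call.

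The estimates leaned to lower levels at 12 months, with 11279 genes below 0 (60.4%) and 7380 above (39.6%), and a median log2 fold change over all genes of -0.09. This median was 0.02 after median-of-ratios scaling of the TPM and 0.06 without 12-month replicate 2. In 36 genes (0.193%) every 12-month sample lay above every 4-month sample. In 1 gene (0.00536%), the lipoxygenase family member Aloxe3, every 12-month sample lay below, with means of 1.36 TPM at 12 months and 2.03 TPM at 4 months. Aloxe3 and Trem2 are named after their values were seen.

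Of the 10 genes with the smallest p-values, none of which passed the test, 5 had higher levels at 12 months. Manf, a factor of the endoplasmic reticulum (ER) that is induced by ER stress (chromosome 9, 106838312 to 106891979), lay at 82.4, 103 and 132 TPM at 12 months and at 55.0, 74.5 and 85.6 TPM at 4 months. Of the 7 older samples 6 were above the highest young one. Its log2 fold change was 0.53 ± 0.14 (SE), with a limma adjusted p of 0.577. Sdf2l1, a cofactor of the ER chaperone system (chromosome 16, 17130138 to 17132383), lay at 21.6, 29.6 and 48.8 TPM at 12 months and at 10.3, 15.0 and 26.9 TPM at 4 months, with a log2 fold change of 0.91 ± 0.24 (SE). The 2 highest young samples, replicates 5 and 6, overlapped the older group. Ssr3, a subunit of the translocon-associated protein complex (chromosome 3, 65379655 to 65392623), lay at 201, 220 and 228 TPM at 12 months and at 152, 170 and 178 TPM at 4 months. The groups did not overlap, and the log2 fold change was 0.37 ± 0.10 (SE). In controls the estimates for Manf, Sdf2l1 and Ssr3 were 0.03, 0.23 and 0.15. With 5xFAD and no Csf1r-cre they were 0.33, 0.97 and 0.36. There Sdf2l1 and Ssr3 passed the limma test of age, adjusted p = 0.0245 and 0.0465, and Manf did not. With 5xFAD and Csf1r-Cre they were 0.19, 0.71 and 0.15, and none passed.

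Of the 19 heat shock and unfolded protein response genes tested, 13 had estimates above 0, 5 of them with an unadjusted p below 0.05, and 6 had estimates below 0. The median log2 fold change of the list was 0.10, against -0.09 over all genes. It was 0.28 against 0.06 without 12-month replicate 2, with 18 of 19 estimates above 0 and 9 at an unadjusted p below 0.05. Over all genes 1224 of 18659 had such a p without that library, in either direction. In controls the median of the list was 0.01, against -0.07 over all genes. Pdia6, a protein disulfide isomerase, lay at 86.9, 216 and 249 TPM at 12 months and at 116, 141 and 169 TPM at 4 months. Its lowest value was that of 12-month replicate 2 and the other 6 older samples were all above the young ones. Its log2 fold change was 0.42 ± 0.16 (SE), and 0.60 without that library, where the limma adjusted p was 0.327. Calr, which encodes the calcium-binding chaperone calreticulin, had the same arrangement, with 292, 665 and 770 TPM against 420, 490 and 555 TPM and a log2 fold change of 0.32 ± 0.15 (SE), or 0.50 without replicate 2.

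**Figure D2:**
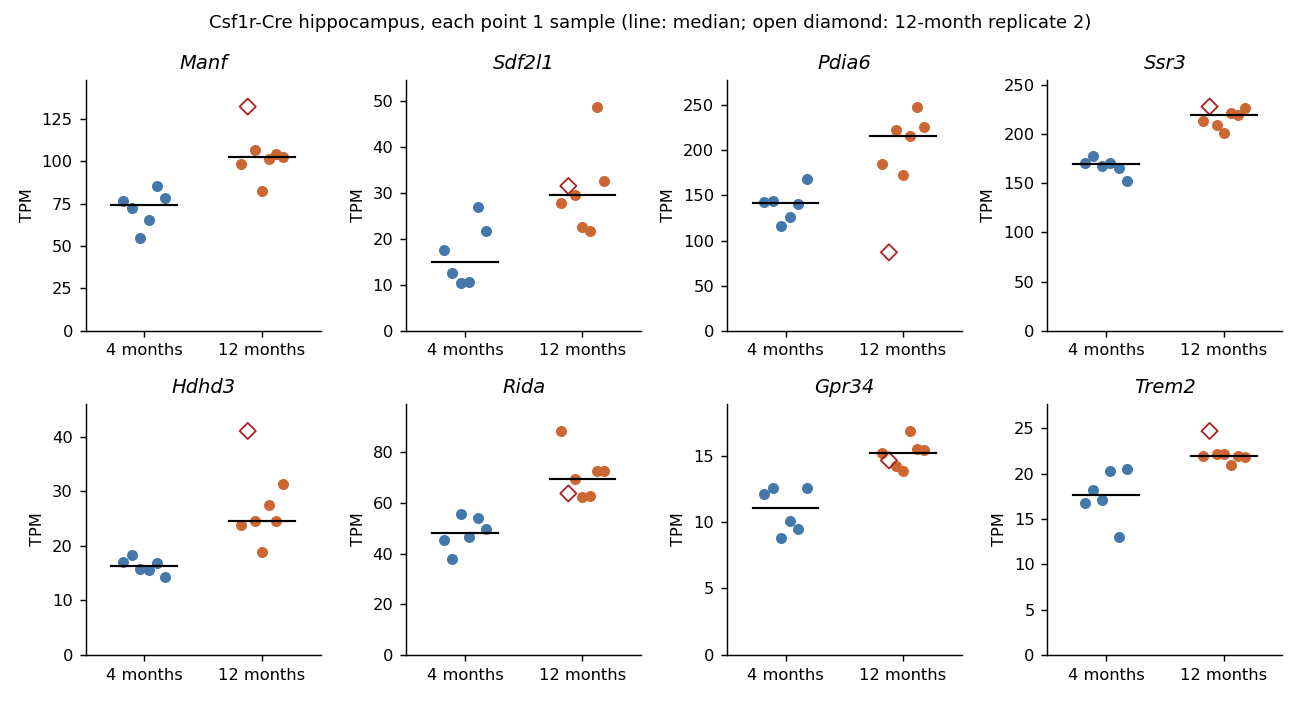
TPM of 8 genes in each Csf1r-Cre sample at 4 and 12 months, with the median as a line and 12-month replicate 2 as an open diamond. In Ssr3, Hdhd3, Rida, Gpr34 and Trem2 every 12-month sample lies above every 4-month sample, and in Pdia6 all but replicate 2 do.

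The promoters of this list were searched for the ER stress response element, the motif through which the unfolded protein response is known to act on chaperone genes. The motif searched was CCAAT, 9 bases of any kind and CCACG, on both strands, in RefSeq promoters of GRCm38.p6 that run from 250 bases before to 50 bases after a gene's start. It was found in 39 of 32851 promoters (0.119%). Of the 20 genes of the list, 17 had a promoter in the table and 5 of them held the motif, namely Hspa5, Hsp90b1, Pdia6, Creld2 and Calr. In that order the age estimates were 0.20, -0.33, 0.42, 0.37 and 0.32 on the log2 scale. The Pdia6 and Calr promoters are printed because these genes hold the motif and are among the 4 of the list with the smallest p-values. Manf and Sdf2l1, also among those 4, were not among the 5 genes found with the motif, and Manf had no promoter in the table. The sequences are read on the strand of the gene, with the motif in capitals. The Pdia6 promoter lies at chr12:17266339-17266638 on the plus strand and that of Calr at chr8:84846882-84847181 on the minus strand, with the Calr motif on the strand opposite to the gene.
Pdia6: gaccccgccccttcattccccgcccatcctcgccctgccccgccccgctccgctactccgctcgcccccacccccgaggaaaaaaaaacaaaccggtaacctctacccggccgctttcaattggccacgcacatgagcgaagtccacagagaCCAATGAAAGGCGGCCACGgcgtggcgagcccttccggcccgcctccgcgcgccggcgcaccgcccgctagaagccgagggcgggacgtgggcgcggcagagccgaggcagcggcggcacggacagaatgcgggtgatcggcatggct
Calr: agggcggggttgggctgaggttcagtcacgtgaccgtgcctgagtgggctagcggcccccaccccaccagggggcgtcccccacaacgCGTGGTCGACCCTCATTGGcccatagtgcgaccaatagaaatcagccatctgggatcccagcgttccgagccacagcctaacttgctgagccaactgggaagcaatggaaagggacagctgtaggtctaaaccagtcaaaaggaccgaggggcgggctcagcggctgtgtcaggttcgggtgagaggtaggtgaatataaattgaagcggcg

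Among the 10 smallest p-values 2 further genes had a higher level in every 12-month sample. Hdhd3, a haloacid dehalogenase-like hydrolase (chromosome 4, 62499008 to 62503467), lay at 18.8, 24.6 and 41.1 TPM at 12 months and at 14.2, 16.3 and 18.4 TPM at 4 months. Its highest value was that of 12-month replicate 2, and its log2 fold change was 0.70 ± 0.17 (SE), or 0.59 without that library. Rida, an enzyme that removes reactive imine intermediates of amino acid metabolism (chromosome 15, 34484021 to 34495255), lay at 62.5, 69.4 and 88.5 TPM at 12 months and at 37.7, 48.1 and 55.6 TPM at 4 months, with a log2 fold change of 0.54 ± 0.15 (SE). With 5xFAD Rida passed the limma test of age, at 0.87 without Csf1r-Cre, adjusted p = 0.000892, and at 0.64 with Csf1r-Cre, adjusted p = 0.0444. Its age difference with both was 0.09 ± 0.24 (SE) above that with Csf1r-Cre alone, adjusted p = 0.826.

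The other 5 of these 10 genes had lower levels at 12 months, and in each the lowest value was that of replicate 2. Malat1, an abundant nuclear long non-coding RNA, lay at 3.11, 25.9 and 32.7 TPM at 12 months and at 27.0, 66.5 and 104 TPM at 4 months, with a log2 fold change of -1.67 ± 0.47 (SE), or -1.27 without replicate 2. Tmf1, a Golgi-associated protein, lay at 0.0376, 0.492 and 1.2 TPM against 1.07, 1.73 and 6.78 TPM, with a log2 fold change of -1.32 ± 0.31 (SE). In Tmf1 the highest young value was that of replicate 4, and 6 of the 7 older samples lay below every young one. Chd7, a chromatin remodeller, lay at 0, 0.653 and 1.40 TPM against 1.27, 1.44 and 3.50 TPM. Asb2, a substrate receptor of a ubiquitin ligase, lay at 0.0916, 1.16 and 2.64 TPM against 1.59, 3.30 and 6.67 TPM. Myo16, an unconventional myosin of neurons, lay at 0.379, 3.44 and 4.70 TPM against 3.31, 6.30 and 30.6 TPM. In all 5 genes the log2 fold change was nearer to 0 without 12-month replicate 2, at -1.18 in Tmf1, -0.80 in Chd7, -0.89 in Asb2 and -1.13 in Myo16. In Chd7 and Myo16, as in Tmf1, the highest young value was that of 4-month replicate 4. In Malat1 and Asb2 it was that of 4-month replicate 5.

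Activated microglia and complement genes had more estimates above 0 than below, and homeostatic microglia genes as many above as below. Of 25 activated microglia genes 17 had estimates above 0 and 8 below, of 11 complement genes 10 and 1, and of 18 homeostatic microglia genes 9 and 9, with 1, 0 and 1 genes at an unadjusted p below 0.05 and none lower. The medians of these lists were 0.20, 0.26 and 0.04 against -0.09 over all genes. Without 12-month replicate 2 they were 0.35, 0.39 and 0.30 against 0.06. Where TPM were rescaled without mitochondrial and short RNAs they were 0.13, 0.26 and -0.04, so the activated list was lower as well. With median-of-ratios scaling they were 0.34, 0.35 and 0.21 against 0.02 over all genes. Csf1r-Cre acts in these cells, and their defining genes were measured at both ages.

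Gpr34, a lysophosphatidylserine receptor of microglia (chromosome X, 13632089 to 13640858), lay at 13.8, 15.2 and 16.8 TPM at 12 months and at 8.80, 11.1 and 12.6 TPM at 4 months. Trem2, the lipid-sensing receptor of microglia (chromosome 17, 48346401 to 48354147), lay at 21, 22 and 24.7 TPM and at 13, 17.6 and 20.5 TPM. The groups did not overlap in either gene, and these were the 2 members of the homeostatic microglia list, of 18, of which this held. Over all genes this held, with higher levels at 12 months, in 36 of 18659 (0.193%). The log2 fold change was 0.46 ± 0.22 (SE) for Gpr34, adjusted p = 0.577, and 0.34 ± 0.23 (SE) for Trem2, adjusted p = 0.596, in limma. Control mice had estimates of 0.48 and 0.29 for the same genes.

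C1qa, a chain of the first complement component, lay at 162, 182 and 202 TPM at 12 months and at 112, 136 and 195 TPM at 4 months, and only 4-month replicate 6 reached into the older range. Its log2 fold change was 0.39 ± 0.20 (SE). C1qc, another chain, lay at 87.9, 119 and 130 TPM against 70.0, 97.8 and 112 TPM. C3, the central complement component, lay at 0, 4.37 and 6.57 TPM against 0.514, 1.75 and 2.59 TPM, with 0 in replicate 2 and 5 of 7 older samples above the young ones. Tyrobp, the signalling adaptor of Trem2, lay at 47.7, 56.8 and 102 TPM against 32.2, 45.7 and 61.2 TPM, with the highest value in replicate 2. Aif1, a calcium-binding marker of microglia, lay at 14.5, 17.2 and 22.1 TPM against 9.46, 14.1 and 17.4 TPM. Fth1, the ferritin heavy chain, lay at 6554, 7726 and 9880 TPM against 4510, 6218 and 6946 TPM, and has near-identical copies in the genome among which reads may be split. Sall1, a transcription factor of microglial identity, leaned the other way, with 0.416, 2.74 and 3.98 TPM against 1.81, 2.87 and 13.8 TPM. Its lowest value was that of 12-month replicate 2 and its highest that of 4-month replicate 4.

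Of 27 lysosome genes 14 had estimates above 0, with a median of 0.02, or -0.06 in TPM rescaled without mitochondrial and short RNAs. These were 26 of 27 and 0.27 without 12-month replicate 2, with 7 at an unadjusted p below 0.05. Over all genes the median was then 0.06, and 1224 of 18659 had such a p in either direction. Ctsh, a cathepsin, lay at 22, 32.2 and 42.6 TPM at 12 months and at 12.1, 22.6 and 26.7 TPM at 4 months, with a log2 fold change of 0.52 ± 0.19 (SE). Hexa, a lysosomal hexosaminidase subunit, lay at 35.7, 61.8 and 63.9 TPM against 38.8, 46.4 and 50.5 TPM, and every older sample but replicate 2 was above the young ones. Npc2, which carries cholesterol out of lysosomes, lay at 70.1, 99.3 and 131 TPM against 73.4, 79.8 and 86.2 TPM, with 5 older samples above the young range and 2 below it. Lipid transport genes as a list were near the background, with 10 of 22 above 0 and a median of -0.08, or 0.09 with median-of-ratios scaling. Without 12-month replicate 2 there were 17 of 22 above 0 and the median was 0.09. In that list Nr1h3, the oxysterol receptor LXR alpha, was at 4.01, 5.00 and 5.64 TPM against 2.78, 3.56 and 5.00 TPM, while Lrp1, a receptor that binds Apoe, was at 9.28, 59.4 and 136 TPM against 58.9, 109 and 214 TPM. Cholesterol synthesis genes had 18 of 20 estimates below 0 with a median of -0.23, and -0.02 without replicate 2. Hmgcs1, an early enzyme of that pathway, was at 8.16, 57.3 and 111 TPM against 42.5, 70.6 and 102 TPM.

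Class II antigen presentation genes had estimates above 0 in 6 of 6, with a median of 0.64, and the high values came from 3 samples. H2-Aa, the class II alpha chain, was at 1.97, 2.67 and 22.5 TPM at 12 months and at 1.26, 2.54 and 6.26 TPM at 4 months, with a log2 fold change of 0.88 ± 0.59 (SE). H2-Ab1, the beta chain, was at 1.58, 5.73 and 20.4 TPM against 2.34, 2.81 and 7.57 TPM. The summed class II level was 66.9, 97.3 and 80.2 TPM in 12-month replicates 1, 6 and 7, and 30.7 to 34 TPM in the other 4. Replicates 1, 6 and 7 were also the 3 older samples with the most choroid plexus and ependyma markers, at 1969, 4903 and 4031 TPM against at most 600.5 TPM in the other 4. At 4 months replicate 5 was the highest in both sums, with 42.8 TPM of class II genes and 2157 TPM of these markers. Sostdc1, a secreted signalling inhibitor made in the choroid plexus, was at 1.56, 8.89 and 78.3 TPM against 2.48, 4.94 and 55.4 TPM. Of the 18 genes of the choroid plexus and ependyma list 17 had estimates above 0, with a median of 0.50 (0.92 without replicate 2). Igkc, the constant part of the immunoglobulin kappa light chain and a product of plasma cells, was at 1.10, 8.67 and 21.4 TPM against 0.966, 2.09 and 2.97 TPM. The 4 older samples above the young range were replicates 1, 2, 6 and 7. The T, B and plasma cell list as a whole had 7 of 14 estimates above 0 and a median of 0.04. The part of choroid plexus tissue in these values was not tested.

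**Figure D3:**
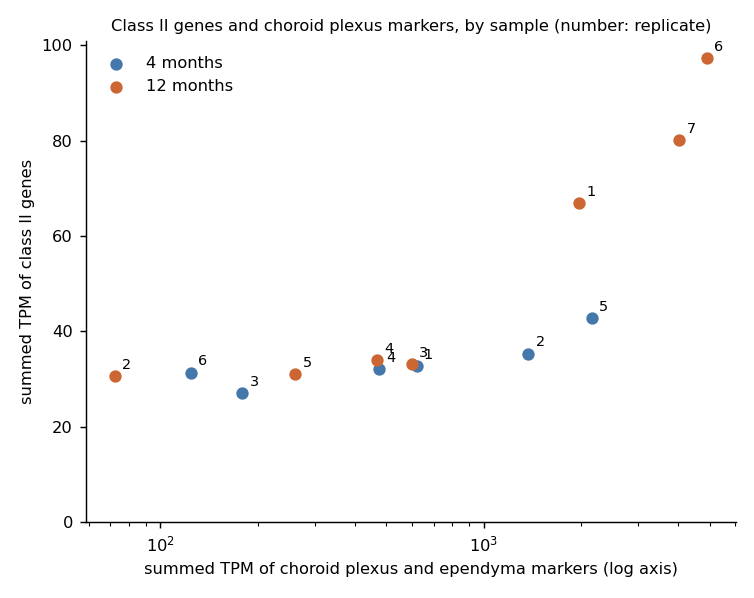
Summed TPM of 6 class II genes against summed TPM of 18 choroid plexus and ependyma markers (log axis) in each Csf1r-Cre sample, numbered by replicate. The 3 samples with the most class II, 66.9 to 97.3 TPM, are 12-month replicates 1, 6 and 7, which have 1969 to 4903 TPM of the markers.

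Class I genes had 12 of 15 estimates above 0 with a median of 0.14 (14 of 15 and 0.30 without replicate 2), and interferon response genes 7 of 27 with a median of -0.16. Psmb8, an immunoproteasome subunit, was at 7.09, 9.83 and 13.6 TPM against 5.02, 5.92 and 12.8 TPM. Gbp3, an interferon-induced GTPase, was at 0, 3.73 and 4.19 TPM against 1.86, 3.36 and 6.84 TPM, with 0 in 12-month replicate 2. Without that library 13 of 27 interferon estimates were above 0 and 14 below.

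Reactive astrocyte genes were split, with 8 of 18 estimates above 0 and a median of -0.02 (0.14 without replicate 2, and 0.12 with median-of-ratios scaling). Gfap, the intermediate filament of astrocytes, was at 55.5, 181 and 384 TPM at 12 months and at 140, 189 and 334 TPM at 4 months. Its log2 fold change was -0.25 with a 95% interval of -0.98 to 0.48, and 0.02 without 12-month replicate 2. C4b, a complement component of astrocytes and oligodendrocytes that shares sequence with a near-identical copy, was at 5.13, 33.1 and 60.6 TPM against 13.1, 22 and 39.3 TPM. Its log2 fold change was 0.34 with an interval of -0.46 to 1.15, and 0.74 without that library. Il33, an alarmin of oligodendrocytes and astrocytes, was at 16.7, 121 and 169 TPM against 59.9, 84.3 and 111 TPM, with the lowest value in replicate 2 and 4 older samples above the young range. Steap4, a metalloreductase of reactive astrocytes, was at 0.0563, 0.345 and 1.41 TPM against 0.0489, 0.205 and 0.260 TPM. Astrocyte markers as a list had 9 of 12 estimates below 0 and a median of -0.38, and -0.02 without replicate 2.

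Cdkn2a, which encodes the cell cycle inhibitor p16 and is a common marker of senescent cells (chromosome 4, 89274471 to 89294653), was at 0.198, 0.610 and 1.75 TPM at 12 months and at 0, 0.0361 and 0.270 TPM at 4 months. Of the 7 older samples 6 lay above the highest young one, at levels of few reads. Its log2 fold change was 1.03 ± 0.34 (SE), with a limma adjusted p of 0.577, and 1.04 without 12-month replicate 2. In the 3 other genotypes the estimates were 1.17 in controls, 1.45 with 5xFAD, adjusted p = 0.0167, and 1.44 with 5xFAD and Csf1r-Cre, adjusted p = 0.0371. The rest of the 11 senescence and damage response genes gave, with it, a list median of 0.02, or -0.06 in TPM rescaled without mitochondrial and short RNAs, with 6 above 0 and 5 below. The median was 0.18 without replicate 2, with 8 of 11 above 0, and also 0.18 with median-of-ratios scaling.

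Neurogenesis and immature granule cell genes had estimates below 0 in 19 of 19, with a median of -0.62 against -0.09 over all genes and 5 at an unadjusted p below 0.05. Without 12-month replicate 2 the median was -0.44 against 0.06, with 16 of 19 below 0 and 2 at that p. Markers of mature excitatory neurons had 8 of 10 below 0 and a median of -0.55, which was -0.54 without 12-month replicate 2. Dpysl3, a growth cone protein of young neurons, was at 1.97, 16.7 and 27.9 TPM at 12 months and at 22.4, 23.6 and 44.4 TPM at 4 months, with a log2 fold change of -0.98 ± 0.35 (SE), or -0.56 without replicate 2. Sox11, a transcription factor of neuroblasts, was at 0.0783, 0.881 and 1.18 TPM against 0.659, 1.27 and 2.64 TPM, and every older sample lay below the young median. Sox4, its relative, was at 0.580, 2.68 and 3.30 TPM against 2.20, 3.54 and 8.74 TPM. The highest young values of Dpysl3, Sox11 and Sox4 were those of 4-month replicate 4. Neurod1, a transcription factor of granule cell differentiation, was at 0.993, 1.70 and 6.05 TPM against 2.02, 4.42 and 5.97 TPM, with 4 older samples below the young range and 1 above it. Those 4, replicates 1, 2, 4 and 7, were also the older samples with the lowest summed excitatory neuron markers, 1012 to 3158 TPM against 4614 to 4968 TPM in the other 3. Controls had a median of -0.43 for the same list, from separate libraries, with no gene of it called.

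Synapse genes had estimates below 0 in 25 of 25 with a median of -0.59 and 5 at an unadjusted p below 0.05, and the size of this moved with single libraries. Without 12-month replicate 2 the median was -0.16, with 21 of 25 below 0 and none at that p. Shank1, a postsynaptic scaffold, was at 11.7, 43.1 and 65.2 TPM at 12 months and at 42.0, 71.0 and 157 TPM at 4 months. Grin2a, an NMDA receptor subunit, was at 1.08, 6.81 and 12.1 TPM against 5.64, 11.5 and 23.3 TPM, and Syn1, a synaptic vesicle protein, at 12.7, 97.7 and 183 TPM against 80.9, 150 and 227 TPM. The ranges of the 3 genes overlapped and the lowest value of each was that of 12-month replicate 2. The highest young values of Shank1 and Grin2a were those of 4-month replicate 4, and that of Syn1 was in 4-month replicate 2.

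Oligodendrocyte precursor genes had 15 of 16 estimates below 0 with a median of -0.47, and -0.04 without replicate 2. Tnr, a matrix glycoprotein of these cells, was at 1.16, 11.7 and 19.9 TPM against 11.4, 15.0 and 43.7 TPM. Gpr17, a receptor of cells on their way to myelination, was at 0.262, 2.15 and 5.22 TPM against 2.16, 4.39 and 8.80 TPM, with 4 older samples below the young range. Mature oligodendrocyte markers turned direction with that library, with a median of -0.12 with it, 0.21 without it and 0.06 with median-of-ratios scaling. Mobp, a myelin protein, was at 26.5, 510 and 1071 TPM against 362, 575 and 723 TPM. Collagen and basement membrane genes had 20 of 24 estimates below 0 with a median of -0.32 (-0.08 without replicate 2). Lama4, a laminin of vessel walls, was at 0.112, 0.350 and 0.957 TPM against 0.455, 0.988 and 2.08 TPM, and Col4a1, a collagen of the basement membrane, at 0.304, 3.66 and 9.88 TPM against 4.54, 7.77 and 13.4 TPM.

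Circadian clock genes had estimates below 0 in 18 of 18 with a median of -0.41, and 10 of 18 with a median of -0.10 without replicate 2. Rorb, a nuclear receptor that is also a marker of cortical layers, was at 0.0115, 0.749 and 2.32 TPM against 1.42, 2.57 and 5.22 TPM, with a log2 fold change of -1.17 ± 0.33 (SE), or -0.93 without replicate 2. Summed cortex markers lay at 56.6, 141 and 281 TPM at 12 months and at 102, 186 and 253 TPM at 4 months. Nr1d1, a repressor of the clock, was at 4.49, 42.3 and 68.8 TPM against 39.7, 68.8 and 90.5 TPM. Dbp, an output gene of the clock, was at 36.7, 69.4 and 88.8 TPM against 54.2, 91.6 and 121 TPM, and Per2, a core component, at 0.351, 1.53 and 3.86 TPM against 1.56, 2.99 and 7.14 TPM. Every older sample lay at or below the young median in Rorb, Nr1d1 and Dbp. The time of day of collection is not in the labels. Immediate early genes had 14 of 22 estimates below 0 with a median of -0.13, and 0.18 without replicate 2 and 0.02 with median-of-ratios scaling. Nr4a2, an orphan nuclear receptor induced by activity, was at 1.26, 6.49 and 10.8 TPM against 4.47, 11.6 and 23.3 TPM.

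Ribosomal protein genes had estimates above 0 in 25 of 25 with a median of 0.32, and 24 of 25 with a median of 0.15 without replicate 2. These genes have many near-identical copies among which reads may be split. Nuclear respiratory chain genes had 22 of 24 above 0 with a median of 0.24, and 0.13 without that library. Ndufb3, a subunit of complex I, was at 178, 228 and 439 TPM against 174, 200 and 216 TPM, with its highest value in replicate 2.

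These 2 lists hold short genes, and the estimates ran with gene length. The median log2 fold change was 0.08, 0.05, -0.06, -0.20 and -0.39 from the shortest to the longest of the 5 bins of genes. In the longest bin 25 genes had a higher and 482 a lower level at an unadjusted p below 0.05, and in the shortest 252 and 73. The medians of the bins without 12-month replicate 2 were 0.07, 0.12, 0.10, 0.04 and -0.09. Of the neurogenesis genes named, Sox11 (8311 bases) lay in the longest bin and Dpysl3 (6265 bases) and Sox4 (4795 bases) in the next. Neurod1 (2729 bases) was shorter. The part of gene length in the list medians was not tested.

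**Figure D4:**
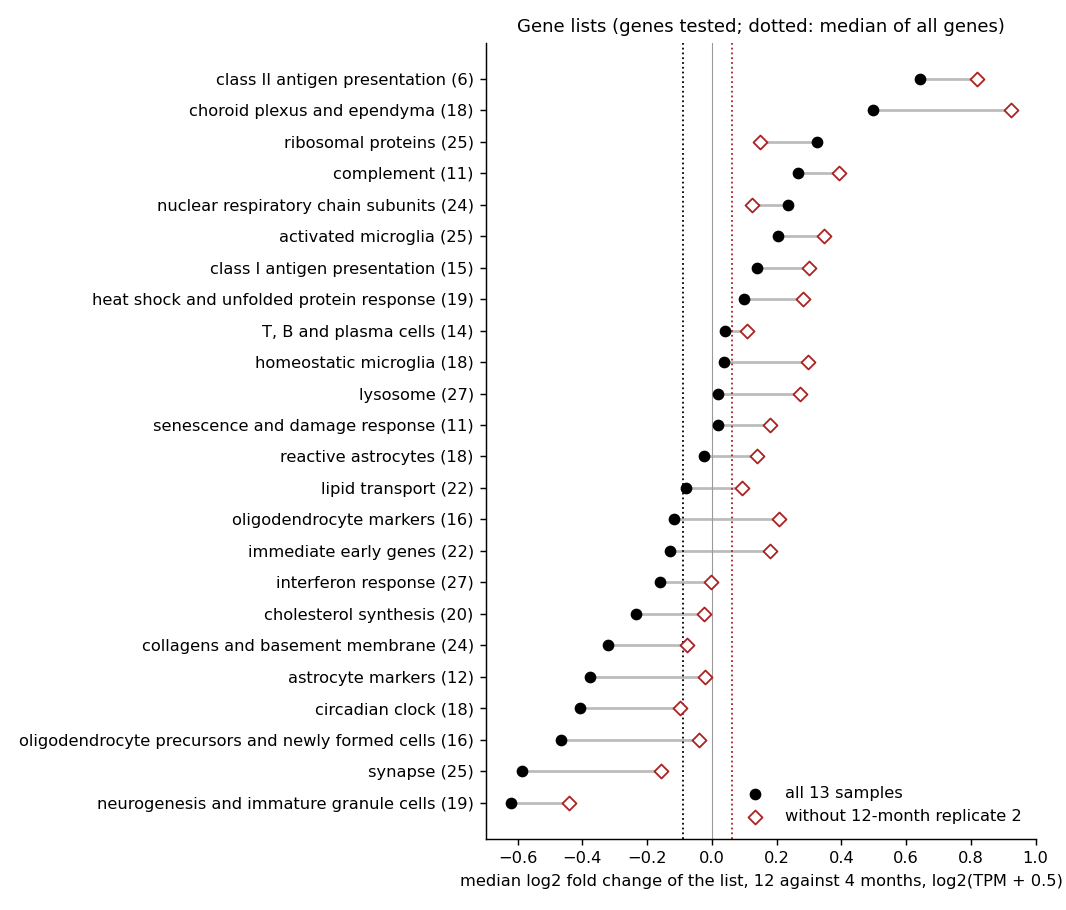
Median log2 fold change of each gene list between 12 and 4 months with Csf1r-Cre, on the log2(TPM + 0.5) scale, with all 13 samples (black) and without 12-month replicate 2 (open diamond), with the number of genes tested in brackets and dotted lines at the medians over all genes. Neurogenesis lies at -0.62 and -0.44, while synapse, precursor and clock lists move to between -0.16 and -0.04. Mature excitatory neuron markers had medians of -0.55 with all samples and -0.54 without replicate 2.

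The age difference was next set against that in control mice, which asks whether it depends on Csf1r-cre. No gene passed the limma test of the difference between the age differences (0 of 18659, 0%), and the smallest adjusted p was 0.308, with 760 genes (4.07%) at an unadjusted p below 0.05. In controls alone 0 genes were called (0%) and 1077 (5.77%) had an unadjusted p below 0.05. The test rests on 3 control samples at 12 months: without control replicate 1 it called 3 genes, and without replicate 3 it called 4. Hdhd3 had the smallest p. It was at 27.4 ± 7.13 TPM (SD, n = 7) at 12 months and 16.3 ± 1.42 TPM (SD, n = 6) at 4 months with Csf1r-Cre, and at 14.8 ± 1.81 TPM (SD, n = 3) and 23.2 ± 4.93 TPM (SD, n = 8) in controls. Its difference of age differences was 1.30 ± 0.27 (SE). The next were Coa4, a cytochrome oxidase assembly factor, at 1.22 ± 0.29 (SE), Ly96, the partner of the endotoxin receptor, at 1.75 ± 0.43 (SE), Tph2, the neuronal enzyme of serotonin synthesis, at 1.72 ± 0.43 (SE), and Myl2, a myosin light chain, at 2.01 ± 0.50 (SE). These had levels of a few TPM, for example, for Ly96, 2.55 ± 0.751 TPM (SD, n = 7) and 1.31 ± 0.469 TPM (SD, n = 6) in the Csf1r-Cre mice, next to 0.878 ± 1.09 TPM (SD, n = 3) and 1.75 ± 0.619 TPM (SD, n = 8) in controls. The age comparisons with and without Csf1r-Cre share no library. Their estimates had the same sign in 58.8% of all genes, and in 73.7% of the 1520 genes at an unadjusted p below 0.05 with Csf1r-Cre, or 64.5% of 1224 such genes without 12-month replicate 2. With the 5xFAD mice without Csf1r-Cre, which share no library either, these shares were 39.8%, 46.1% and 85.8%, and with the 5xFAD Csf1r-Cre mice 33.5%, 26.2% and 67.1%. Without replicate 2 the shares of all genes were 57.7% for controls, 58.3% for 5xFAD and 51.2% for 5xFAD with Csf1r-Cre.

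The age difference with Csf1r-Cre alone was then set against that in mice with Csf1r-Cre and 5xFAD. The test of the difference called 83 genes (0.445%), of which there were 79 (0.423%) whose age difference was higher with 5xFAD and 4 (0.0214%) whose age difference was lower. In mice with both transgenes, age itself called 608 genes as higher (3.26%) and 14 as lower (0.0750%). Of the 79, 77 were among those 608, as the 2 tests share these libraries. The median log2 fold change of the 79 was 1.67 with 5xFAD and -0.11 with Csf1r-Cre alone, where 25 were above 0 and 54 below. The 79 were chosen by the gap between these 2 estimates, so the gap between the medians is no separate evidence. Over all genes the median with Csf1r-Cre alone was -0.09, with 60.4% below 0. The median over all genes of the difference of age differences was 0.38, and 0.02 with median-of-ratios scaling, under which 57 genes were called.

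The count moved with single libraries. It was 45, 25 and 42 without 4-month Csf1r-Cre replicates 2, 4 and 6, and 53, 259 and 43 without 12-month Csf1r-Cre replicates 2, 3 and 5. It was 11, 20 and 36 without 4-month 5xFAD Csf1r-Cre replicates 2, 3 and 4, and 10, 8, 416 and 24 without 12-month 5xFAD Csf1r-Cre replicates 1 to 4. With the spread estimated in these 4 groups only, 0 genes were called, with 2864 at an unadjusted p below 0.05 and a smallest adjusted p of 0.0524. The 8 genes called whichever of the 22 libraries was left out were Cd22, Itgax, Ptprc, Ctse, Hpse, Atp6v0d2, Plau and Tgm1. With Csf1r-Cre alone Atp6v0d2 and Ctse were at most at 0.0396 and 0.316 TPM. They passed the filter of 0.5 TPM only through groups with 5xFAD, where they were high. Being called each time is therefore no separate evidence for these genes. Cd22, Ptprc and Tgm1 are named after their values were seen.

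The 5 genes with the smallest p-values in this test, Itgax, Hpse, Plau, Atp6v0d2 and Ctse, were at or below 1.56 TPM in every sample with Csf1r-Cre alone. They were chosen by that test, and other activated microglia genes such as Tyrobp and Fth1 had the high levels given above. Itgax, the integrin CD11c, was at 0, 0.435 and 1.56 TPM at 12 months and at 0.232, 0.531 and 0.802 TPM at 4 months with Csf1r-Cre alone. With 5xFAD as well it was at 29.0 ± 13.7 TPM (SD, n = 5) and 2.17 ± 1.30 TPM (SD, n = 4), and the difference of age differences was 3.46 ± 0.57 (SE), limma adjusted p = 0.00147. Cst7, a cysteine protease inhibitor, was at 0.922 ± 0.733 TPM (SD, n = 7) and 0.737 ± 0.572 TPM (SD, n = 6) in Csf1r-Cre mice and at 76.1 ± 47.9 TPM (SD, n = 5) and 9.08 ± 8.22 TPM (SD, n = 4) with 5xFAD. Hpse, heparanase, was at 0.336 ± 0.275 TPM (SD, n = 7) and 0.425 ± 0.159 TPM (SD, n = 6), and with 5xFAD as well at 9.33 ± 6.73 TPM (SD, n = 5) and 0.618 ± 0.398 TPM (SD, n = 4). Plau, the urokinase protease, was at 0.792 ± 0.496 TPM (SD, n = 7) and 0.880 ± 0.151 TPM (SD, n = 6), and with 5xFAD as well at 8.90 ± 4.33 TPM (SD, n = 5) and 1.01 ± 0.234 TPM (SD, n = 4). Atp6v0d2, a subunit of the vacuolar proton pump, was listed at 0 in 12 of the 13 Csf1r-Cre libraries and at 0.0396 TPM in 12-month replicate 7, while it was at 2.23 ± 1.80 TPM (SD, n = 5) at 12 months with 5xFAD. Ctse, cathepsin E, was at 0, 0.0418 and 0.181 TPM and at 0, 0 and 0.316 TPM with Csf1r-Cre alone, values of very few reads.

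The astrocyte and antigen presentation genes named were also tested for the difference, which Gfap, C4b, B2m and Cd44 passed. Among those that did not pass were Steap4, H2-Aa, H2-Ab1 and Psmb8. Their differences were 0.47, 2.45, 2.00 and 0.76, with limma adjusted p = 0.569, 0.170, 0.172 and 0.266. Gfap was at 196 ± 106 TPM (SD, n = 7) and 212 ± 72.5 TPM (SD, n = 6) in Csf1r-Cre mice and at 1843 ± 897 TPM (SD, n = 5) and 406 ± 162 TPM (SD, n = 4) with 5xFAD, a difference of age differences of 2.39 ± 0.57 (SE), limma adjusted p = 0.0425. C4b was at 34.1 ± 17.8 TPM (SD, n = 7) and 23.8 ± 10.2 TPM (SD, n = 6), and with 5xFAD as well at 343 ± 157 TPM (SD, n = 5) and 47.0 ± 33.0 TPM (SD, n = 4). B2m, which pairs with every class I heavy chain, was at 235 ± 62.1 TPM (SD, n = 7) and 227 ± 78.7 TPM (SD, n = 6), and with 5xFAD as well at 796 ± 238 TPM (SD, n = 5) and 267 ± 63.7 TPM (SD, n = 4). Cd44, an adhesion receptor of reactive astrocytes, was at 1.2 ± 0.701 TPM (SD, n = 7) and 1.55 ± 0.739 TPM (SD, n = 6), and with 5xFAD as well at 10.2 ± 9.18 TPM (SD, n = 5) and 1.90 ± 0.314 TPM (SD, n = 4). For Trem2 and C1qa the test of the difference did not pass, with limma adjusted p = 0.101 and 0.0852 and differences of 1.26 ± 0.37 and 1.09 ± 0.31 (SE). These genes had higher estimates at 12 months in both genotypes, 0.34 and 0.39 with Csf1r-Cre alone and 1.60 and 1.48 with 5xFAD. For Manf, Sdf2l1 and Ssr3 the differences were -0.34 ± 0.22, -0.20 ± 0.38 and -0.23 ± 0.15 (SE), with limma adjusted p = 0.318, 0.756 and 0.342.

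**Figure D5:**
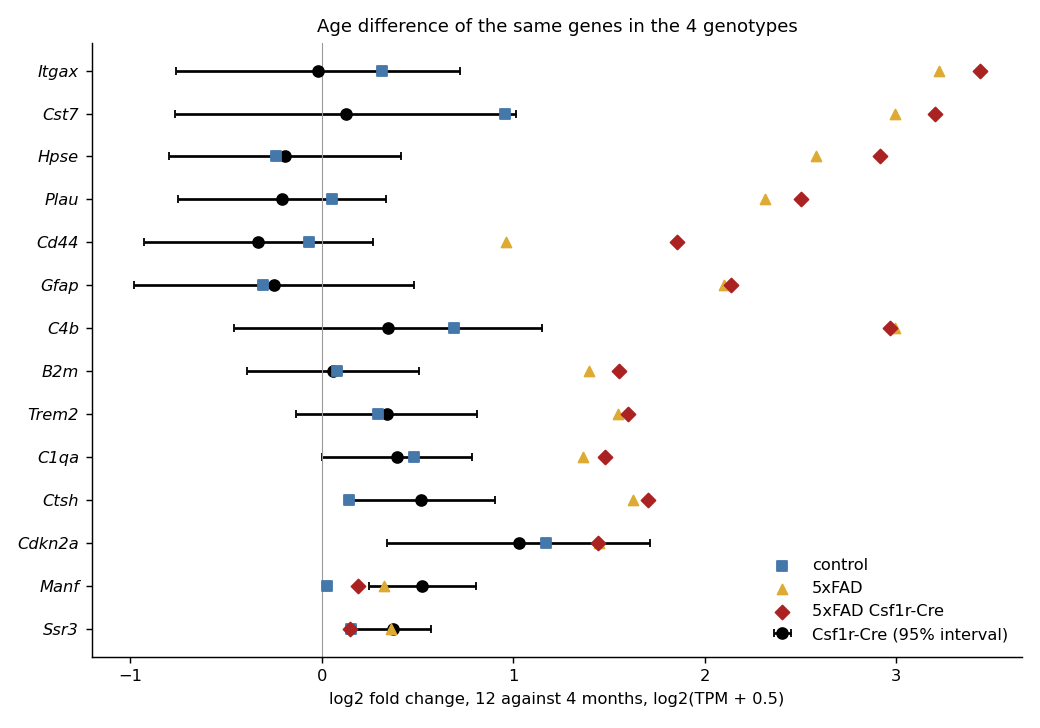
Log2 fold change between 12 and 4 months, on the log2(TPM + 0.5) scale, of 14 genes in the 4 genotypes, with the 95% interval for Csf1r-Cre alone. The intervals of Itgax to B2m with Csf1r-Cre alone include 0. Their estimates are between 1.49 and 3.46 higher with 5xFAD and Csf1r-Cre, while Cdkn2a is above 1 in all 4.

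The gene lists stood likewise. Activated microglia genes had a median age difference of 0.20 with Csf1r-Cre alone, where 0 of 25 were called, and of 1.55 with 5xFAD, where 19 were called as higher. Over all genes the medians were -0.09 and 0.27, with 3.26% called as higher with 5xFAD. For complement genes these medians were 0.26 and 1.48, for homeostatic microglia 0.04 and 1.13, for class II genes 0.64 and 2.45, and for reactive astrocytes -0.02 and 1.83. The test of the difference itself called 6 of 25 activated microglia genes, 5 of 18 reactive astrocyte genes, 3 of 27 lysosome genes, 1 of 11 complement genes, 1 of 27 interferon response genes, 1 of 15 class I genes and no homeostatic microglia or class II gene, all with the higher age difference in 5xFAD. Over all genes, 0.423% were called with the higher age difference in 5xFAD. Oligodendrocyte markers had medians of -0.12 and 1.28, with 0 of 16 called in the test of the difference. Neurogenesis genes had medians of -0.62 and 0.11, and 0 of 19 were called.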

How the data were processed

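The authors deposited 1 table of TPM values for 54532 genes in mm10, with Ensembl identifiers, symbols and coordinates; the tools named per the submitters' processing notes are the aligner STAR, the counter featureCounts, and edgeR and limma, each with the version not given in the sources used here. Strand use, settings and the handling of reads that map to several places are not given either, and 102 symbols are repeated, so genes were joined by identifier. TPM keep no counts, so no count model was used. The 18659 genes with at least 0.5 TPM in at least 3 of the 45 samples were tested on log2(TPM + 0.5), a scale that understates the fold change of low genes. The model was fitted with limma 3.58.1 under R 4.3.3, with an intensity trend in the empirical Bayes step and 1 mean per group over all 45 libraries, so that all groups share 1 estimate of the spread. Two-sided p-values were adjusted by the Benjamini-Hochberg method across the whole table, with a threshold of 0.05. Every adjusted p comes from this model, and Apoe was also tested with an exact permutation test over 1716 splits. The scripts were tested on simulated data.

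Named genes are Apoe, the 10 smallest p-values of the age comparison (no gene was called), the 5 smallest of each test of a difference, and up to 4 genes with the smallest p-values of each list, leaving out, other than in lists, predicted gene models, sex-linked genes and genes whose mean is under 1 TPM in the groups compared; Gfap, C4b, B2m, Cst7, Il33 and Trem2 were added with values known, and some genes that the rule names are not reported here. The comparison, gene lists and tests were chosen with earlier results of these data known. Same-numbered samples of both ages were checked for pairing: the correlations of their deviations ranged from -0.366 to 0.187, so the numbers do not pair the samples. No library was counted as a duplicate, with a closest pair at a correlation of 0.988. Alternatives were other pseudocounts, filters, scalings, weights, a Xist covariate, the compared groups only, a replicate block, and leaving out libraries.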

Additional observations from a re-analysis of the deposited data

Results flagged for a closer look

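Of 140 groups of values checked (70 named genes at 2 ages), 28 held a sample far from the others of its group, where chance gives about 1 in 20. In 19 of the 28 that sample was 12-month Csf1r-Cre replicate 2, and in 16 of these it was the lowest. It was at 1292 TPM for Apoe, 3.11 TPM for Malat1, 86.9 TPM for Pdia6, 292 TPM for Calr, 0.416 TPM for Sall1, 87.9 TPM for C1qc and 5.13 TPM for C4b. It was at 113 TPM for B2m, 16.7 TPM for Il33, 1.97 TPM for Dpysl3, 0.262 TPM for Gpr17, 8.16 TPM for Hmgcs1, 35.7 TPM for Hexa and 4.49 TPM for Nr1d1. It was at 26.5 TPM for Mobp, and Gbp3 was listed at 0. The sample was the highest for Trem2, at 24.7 TPM, for Tyrobp, at 102 TPM, and for Ndufb3, at 439 TPM. The library's length-dependent levels are given beside the results, and their part in these values was not tested.

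In 5 of the 28 the sample was 4-month Csf1r-Cre replicate 4, the highest of its group for Tmf1 at 6.78 TPM, Chd7 at 3.50 TPM, Tph2 at 1.24 TPM, Sall1 at 13.8 TPM and Cdkn2a at 0.270 TPM. This library had the highest median in long genes of the 4-month group. The other 4 were Atp6v0d2 in 12-month replicate 7, at 0.0396 TPM where the rest are listed at 0, Ctse in 4-month replicate 2, at 0.316 TPM, Ctsh in 4-month replicate 3, at 12.1 TPM, and Cd44 in 4-month replicate 6, at 3.04 TPM.

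The age difference with 5xFAD and Csf1r-Cre minus that with Csf1r-Cre alone passed the limma test at an adjusted p below 0.05 in 11 named genes, all positive. On the log2(TPM + 0.5) scale it was 3.46 for Itgax, 3.11 for Hpse, 3.08 for Cst7, 2.71 for Plau, 2.63 for C4b, 2.39 for Gfap and 2.19 for Cd44. It was 1.91 for both Ctse and Chd7 and 1.49 for B2m. For Atp6v0d2 it was 2.05, a value that depends on the pseudocount, since the gene is listed at 0 in nearly all Csf1r-Cre libraries. The age estimate of Chd7 was -0.99 with Csf1r-Cre alone and 0.92 with 5xFAD and Csf1r-Cre.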

How the results depend on the processing

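The count of 0 genes between 12 and 4 months with Csf1r-Cre was the same under all 24 alternatives. For the difference from controls it was 0 except 1 with array weights, and 0 to 4 with 1 library left out. For the difference from 5xFAD with Csf1r-Cre the count of 83 became 3 with a pseudocount of 0.1 and 152 with 1, 46 with no filter, 0 with only the groups compared, 606 with array weights and 16 with a Xist covariate, and 8 to 416 with 1 library left out. Other filters and scalings gave 57 to 109. The replicate block gave 0 calls in all 3 tests, with a smallest adjusted p of 0.156 in the last and 2094 genes at an unadjusted p below 0.05. Same-numbered samples correlated over 0.1 in 3 of 6 pairs and 1 of 6 correlated best with its own number, so the block pairs samples that share only a number. The Apoe difference was -0.09 and turned to 0.083 with median-of-ratios scaling, and ran from -0.176 to 0.111 with 1 library left out.

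Of 759 alternative age estimates for 69 genes, 754 kept their direction. Those that turned were Itgax, to 0.0122 with a pseudocount of 1, 0.220 with array weights and 0.145 without both libraries that stand apart, Gfap, to 0.0173 without them, and B2m, to -0.0177 in TPM rescaled without mitochondrial and short RNAs. With 1 library left out, 881 of 897 kept it, and the ranges of those that turned were -0.0302 to 0.132 for Ctse, -0.196 to 0.145 for Itgax, -0.446 to 0.0173 for Gfap, -0.0576 to 0.225 for B2m, -0.0583 to 0.347 for Cst7 and -0.00578 to 0.544 for Il33. The 11 called differences from 5xFAD kept their direction throughout, and 47 of 121 values fell short of the threshold, as did 53 of 242 with 1 library left out. The cause was not tested. Values without 12-month replicate 2 alone were added after seeing the data. The depth in reads is not in the TPM, so no counting error is given, and calls for the many genes below 1 TPM depend on the pseudocount.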

Other observations

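Other gene groups were measured with Csf1r-Cre alone and hold no gene that passed the test, and the genes named here were chosen after their values were seen. Cell division genes had 6 of 16 estimates above 0 between 12 and 4 months and a median of -0.10, and 10 of 16 and 0.05 without 12-month replicate 2. Pcna, the sliding clamp of DNA replication, lay at 90.6, 102 and 121 TPM (lowest, median, highest) at 12 months and at 83.5, 91.0 and 95.2 TPM at 4 months. Of the 7 older samples 6 were above every young one, and its log2 fold change was 0.21 ± 0.10 (SE), with a limma adjusted p of 0.577. Birc5, Ube2c and Ccnb2, which act in mitosis, had estimates of -0.36, -0.38 and -0.26, at levels of at most 2.14 TPM. Glucocorticoid response genes had 8 of 15 estimates above 0, and 12 of 15 without 12-month replicate 2. Sgk1, a kinase induced by glucocorticoids, lay at 88.1, 135 and 483 TPM against 76.5, 95.8 and 122 TPM, with 5 older samples above the young range. The highest, 483 TPM, was in 12-month replicate 6, which also had the most choroid plexus and ependyma markers.

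Endothelial genes had 4 of 16 estimates above 0, and 10 of 16 without 12-month replicate 2. Ly6a and Ly6c1, surface proteins of mouse brain endothelium, lay at 41.7, 63.4 and 73.1 TPM against 30.6, 45.7 and 65.7 TPM, and at 117, 136 and 139 TPM against 79.7, 102 and 149 TPM. Abcb1a, an efflux pump of the blood-brain barrier, and Flt1, a VEGF receptor, lay lower, at 0.711, 7.38 and 15.1 TPM against 4.52, 10.8 and 22.1 TPM, and at 0.772, 9.42 and 15.0 TPM against 5.59, 11.4 and 29.4 TPM. Without 12-month replicate 2 their estimates were -0.40 and -0.37. Short and non-polyadenylated RNAs had 8 of 11 estimates below 0. Rn7sk, the RNA that holds the elongation factor P-TEFb inactive, lay at 8.98, 15.9 and 45.2 TPM at 12 months and at 13.4, 83.8 and 198 TPM at 4 months, with a log2 fold change of -1.83 ± 0.66 (SE). Scarna2, a guide RNA of Cajal bodies, lay at 0.143, 0.374 and 0.748 TPM against 0.403, 1.68 and 4.48 TPM. Both groups' ranges overlapped, and the levels of such RNAs can move with how a library was made, which was not tested.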
